A study of Mus musculus with 5 samples.

Results

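Regulatory T cells carrying Foxp3 transcripts were taken from droplet single-cell RNA libraries of C57BL/6j kidneys. The animals were a lupus model made with pristane, an oil that sets off chronic inflammation. All 5 mice had received pristane. The saline group had 2 mice, and the FMT group, given a faecal microbiota transplant from donors of the MRL/MpJ strain, had 3. The labels give no mouse without pristane, no genotype besides the strain and no age, and they name tubular epithelial cells and B cells and do not mention T cells. The cells were selected on measured UMIs: a cell was counted as Foxp3-positive when its barcode held at least 200 genes, under 50% mitochondrial unique molecular identifiers (UMIs), at least 1 Foxp3 UMI, at least 1 UMI of Cd3d, Cd3e or Cd3g, and no UMI of Cd8a, Cd8b1 or Cd79a. That rule gave 100 cells of 22591 kept barcodes, out of 26237 in all. Saline mice 1 and 2 gave 20 and 19 of them, and FMT mice 1, 2 and 3 gave 20, 28 and 13. Values for the 5 mice follow this order throughout. Nothing in the labels beyond the replicate numbers says how the animals were housed or prepared, so a p-value covers variation among these 5 animals alone.

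Regulatory T cells are the CD4 lineage that restrains other lymphocytes. Foxp3 is the transcription factor that fixes their identity. They take up interleukin 2 through the high-affinity receptor chain Il2ra and strip costimulatory ligands from antigen-presenting cells through Ctla4. Cells made in the thymus commonly carry the Ikaros family factor Ikzf2 (Helios), and those that settle in non-lymphoid tissue are known for activation receptors and for losing the homing programme of naive cells. In lupus nephritis they are studied because they hold back the helper T cells and B cells that drive autoantibody production.

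Foxp3 transcripts were sparse, and 136 kept barcodes held any. Of these, 100 met the rule, 9 had no Cd3 UMI, 16 carried a Cd8 UMI and 11 carried Cd79a. Among cells with Cd3 and no Cd79a, 3.47% had a Foxp3 UMI (116 of 3347 cells, 95% exact interval 2.87 to 4.14, median 4167 UMIs per cell). The share was 1.21% in CD8 T cells (16 of 1319, 0.695 to 1.96, median 4809 UMIs) and 0.0431% in proximal tubule cells (5 of 11606, 0.0140 to 0.101, median 5305 UMIs). No B cell had one (0 of 3260, exact interval up to 0.113%, median 3050.5 UMIs), and neither did any neutrophil (0 of 410, up to 0.896%, median 2735.5 UMIs). By the limit of 3 counts, which is not a 2-sided interval, these zeros allow shares of up to 0.0920% and 0.732%. The share in tubule cells and B cells was thus far below that in T cells, and the tubule and CD8 T cells were the deeper ones. Intervals and limits cover counting error only.

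Since Foxp3 chose the cells, its level is a description only. The 100 cells carried 1 Foxp3 UMI in 43 cases, 2 in 31, 3 in 17, 4 in 6, 5 in 1 and 6 in 2. Foxp3 (ENSMUSG00000039521, chromosome X, 7573644 to 7595245, plus strand, GRCm38) stood at 428, 515, 522, 670.0 and 374 CPM, its share of the cells' summed UMIs on the usual CPM scale. The comparison cells were Foxp3-negative Cd4 T cells, which met the same filters with no Foxp3 UMI and at least 1 Cd4 UMI. There were 140, 122, 173, 148 and 40 of them, 623 in all. Median depth was 2999 UMIs in the Foxp3-positive cells and 3899 in the Foxp3-negative ones. Cd4 itself was detected in 35 of the 100 Foxp3-positive cells, in which the rule did not ask for it.

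The other 3 markers of the lineage, which the rule did not use, were frequent in the cells. Ikzf2 was detected in 77% of Foxp3-positive cells (95% exact interval 67.5 to 84.8) against 8.19% of Foxp3-negative Cd4 T cells and 5.38% of CD8 T cells. Ctla4 was detected in 51% against 11.2% and 6.44%, and Il2ra in 25% against 4.17% and 1.44%. None of the 3 was present in 9 of the 100 Foxp3-positive cells, whereas 80.1% of the Foxp3-negative Cd4 T cells had none. Cells just inside the threshold, with 1 Foxp3 UMI, had Ikzf2 in 76.7%, Ctla4 in 48.8% and Il2ra in 18.6% of 43 cells. Those with 2 or more had them in 77.2%, 52.6% and 29.8% of 57 cells. In each of the 3 markers the cells with a single Foxp3 UMI lay nearer to those with more than to the Foxp3-negative cells just outside the threshold.

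**Figure D1:**
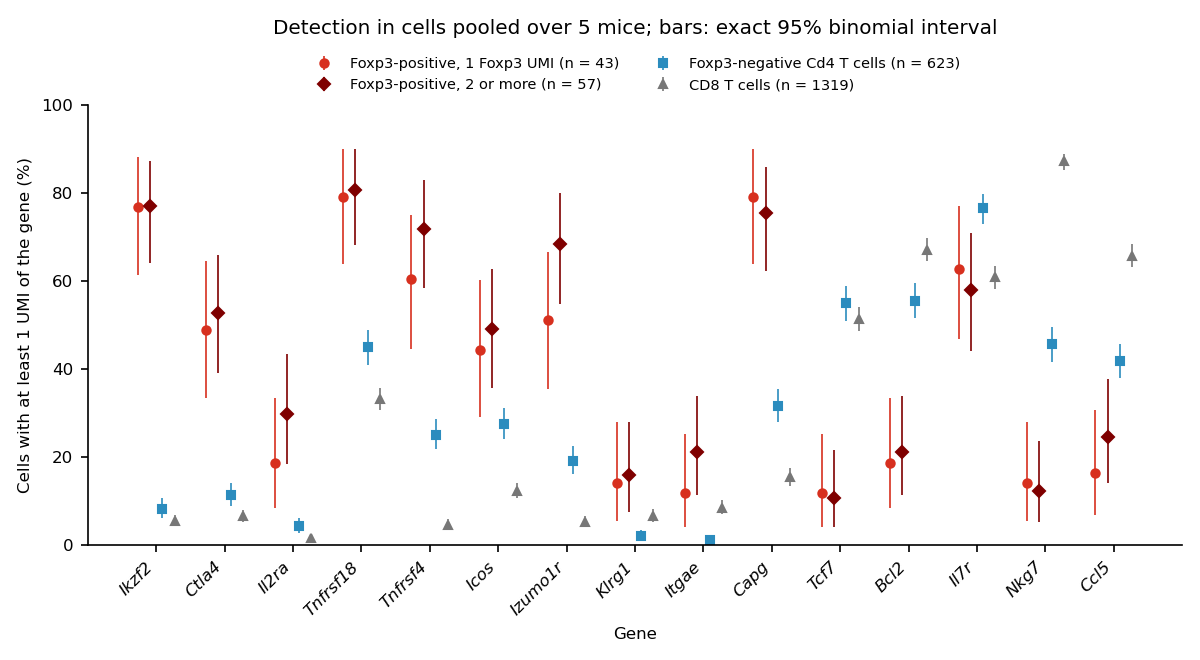
Percentage of cells (y axis) with at least 1 UMI of each gene (x axis) in Foxp3-positive cells with 1 Foxp3 UMI, those with 2 or more, Foxp3-negative Cd4 T cells and CD8 T cells, pooled over 5 mice, with exact 95% binomial intervals for counting error. Ikzf2 was found in 76.7% and 77.2% of the Foxp3-positive cells and in 8.19% of the Foxp3-negative ones, while Tcf7 was found in 11.6% and 10.5% against 54.9%.

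The first comparison asked which genes set the Foxp3-positive cells apart from the other Cd4 T cells of the same kidneys. They carried more RNA for the factor Ikzf2, the checkpoint receptor Ctla4, and the costimulatory receptors Tnfrsf4 (OX40), Tnfrsf18 (GITR) and Icos. They also carried more RNA for the tissue and effector genes Klrg1, Capg, Glrx and S100a4. They were low in the naive and memory factors Tcf7, Lef1 and Satb1, the survival gene Bcl2 and the cytokine receptor Il7r, and in the effector genes Ccl5, Nkg7 and Cxcr6. With UMIs summed per mouse and class and the mouse as a block, edgeR's quasi-likelihood test with Benjamini-Hochberg adjustment called 154 of 1511 genes (10.2%) at an adjusted p under 0.05, 85 higher (5.63%) and 69 lower (4.57%). The median over all genes tested was 0.02 on the log2 scale, and 787 of them were positive. With 1 mouse left out the number of calls was 59 (FMT mouse 2), 82 (FMT mouse 1), 100 (saline mouse 2), 101 (saline mouse 1) or 148 (FMT mouse 3). Lower calls outnumbered higher ones in several other settings, with 75 higher and 256 lower without the low-count filter, 92 and 107 with doublets removed, 39 and 48 after cells were thinned to 1000 UMIs, and 235 and 471 when the comparison cells needed no Cd4 UMI. The 8 genes that define the classes get no test.

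Ikzf2 (ENSMUSG00000025997, chromosome 1, 69531214 to 69687245, minus strand) stood at 338, 745, 427, 573 and 1023 CPM in the Foxp3-positive cells of the 5 mice. In the Foxp3-negative cells of the same mice it stood at 35.6, 20.3, 25.4, 17.7 and 36.9 CPM. The lowest Foxp3-positive sum thus lay above the highest Foxp3-negative one, and Ikzf2 rose by 4.34 on the log2 scale (SE 0.257, edgeR adjusted p = 2.53e-07). Ctla4 (ENSMUSG00000026011, chromosome 1, 60887000 to 60915832, plus strand) was at 304, 420.1, 249, 119 and 474 CPM against 28.8, 40.5, 42.3, 15 and 36.9. FMT mouse 2 was the lowest, and still above each of the Foxp3-negative sums, with a log2 fold change of 3.07 (SE 0.231, edgeR adjusted p = 1.39e-06). Il2ra (ENSMUSG00000026770, chromosome 2, 11642807 to 11693193, plus strand) did not pass the filter on low counts and was not tested. Its levels of 113, 27.1, 71.2, 140.5 and 175 CPM against 11.9, 20.3, 9.68, 5.44 and 0 did not overlap between the classes.

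Of 17 listed surface receptors of regulatory T cells, 8 passed the filter on low counts, and 7 of these rose. The other tested receptor had a negative fold change and was not called, the remaining 9 were not tested, and the median of the 8 was 1.66 on the log2 scale. A gene could pass that filter through its level in 1 class alone, so counts and medians over the tested genes of a list are descriptions. A gene near 0 in 1 class, such as Klrg1 or Ly6c2 below, passed through the other class and could only come out higher there. The same held for other genes below the filter's level in 1 class. Among them, Ikzf2 and Ctla4 above and Fgl2 below passed only through the Foxp3-positive cells. Tcf7 and Satb1 passed only through the Foxp3-negative cells and could only come out lower. Tnfrsf4 (ENSMUSG00000029075, chromosome 4, 156013843 to 156016612, plus strand) was at 889, 691, 416, 746 and 1098 CPM against 169, 99.8, 89.5, 64 and 103 (log2 fold change 2.75, SE 0.197, edgeR adjusted p = 1.39e-06). Tnfrsf18 was at 979.5, 596, 368, 778 and 973 CPM against 198, 201, 132, 128 and 169.5 (2.02, SE 0.189, adjusted p = 1.40e-05). Both are receptors of the tumour necrosis factor family that sustain regulatory T cell survival and growth, and FMT mouse 1 had the lowest Foxp3-positive level of each. Izumo1r, folate receptor 4, a surface protein enriched on these cells in mice, was at 270.2, 569, 309, 529.5 and 225 CPM against 62.7, 51.4, 59.3, 73.5 and 103 (2.48, adjusted p = 5.47e-05). Tnfrsf1b, the second receptor for tumour necrosis factor, rose by 2.18 (adjusted p = 0.00101), and Icos by 1.31, with 71.7 to 107 CPM in the Foxp3-negative and 202 to 270.2 CPM in the Foxp3-positive cells (adjusted p = 0.000645). The costimulatory receptor Cd27 rose by 1.14 (adjusted p = 0.0121) and Cd5, a brake on T cell receptor signals, by 0.72 (adjusted p = 0.0273). The classes did not overlap for Tnfrsf4, Tnfrsf18, Izumo1r, Icos or Cd27. The call for Cd27 was lost without FMT mouse 2 and without the mouse as a block. That for Cd5 was lost with saline mouse 2 or any FMT mouse left out, with DESeq2, without the block, without the low-count filter and with at least 2 Foxp3 UMIs required, a setting that left 4 mice.

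Other listed receptors were too sparse for a test here and stand as values. Nrp1, a semaphorin receptor common on thymus-derived cells, was found in 29% of Foxp3-positive cells against 14.8%. The inhibitory receptor Pdcd1 was found in 14% against 9.31%, with 158 and 67.8 CPM after saline and 11.9, 10.8 and 49.9 after FMT. Pdcd1 did not pass the low-count filter between treatments either, so that difference was not tested. Lag3 was found in 8% against 2.89%, Lrrc32, which displays latent transforming growth factor beta, in 4% against 0.481%, and Tigit in 2% against 1.44%.

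Among 27 listed transcription factors, 9 passed the filter, 3 were higher and 2 lower, with a median of 0.10. Gata3, which supports regulatory T cells in tissues, was at 225, 94.9, 166, 75.6 and 249.6 CPM against 54.2, 56.1, 52, 58.5 and 88.5 (log2 fold change 1.28, SE 0.296, edgeR adjusted p = 0.0170). In FMT mouse 2 its level was below the highest Foxp3-negative sum, and the call was lost without saline mouse 1, without FMT mouse 1 and with at least 2 Foxp3 UMIs required. Maf and Batf, factors of effector differentiation, rose by 0.83 and 0.98 (adjusted p = 0.0435 and 0.0443). The call for Batf was lost with any 1 mouse left out and with DESeq2, and that for Maf with saline mouse 2 or an FMT mouse left out, without the block and when the comparison cells needed no Cd4 UMI. Both were also lost without the low-count filter and with at least 2 Foxp3 UMIs required. Satb1, a chromatin organiser that is high in conventional T cells, was at 22.5, 27.1, 23.7, 32.4 and 74.9 CPM against 96.6, 117, 129, 135 and 155, and fell by 2.03 with no overlap (adjusted p = 0.000951). Id2, an inhibitor of E proteins, fell by 1.21 (adjusted p = 0.00988), and its call was lost without FMT mouse 2 and without the block. Tbx21, the factor of type 1 helper cells, was found in 1 of the 100 cells against 9.31% of the Foxp3-negative cells.

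Genes of tissue and effector regulatory T cells split. Of 26 listed, 16 passed the filter, 5 were higher and 3 lower, with a median of 0.38. Klrg1, a lectin-like receptor of terminally differentiated cells, was held by 15 of the 100 cells and stood at 214, 189.7, 131, 108 and 99.8 CPM against 8.47, 1.56, 14.5, 20.4 and 0. That was a log2 fold change of 3.74 (SE 0.539, edgeR adjusted p = 0.000646) with no overlap. Klrg1 passed the filter only through the Foxp3-positive cells. Capg, an actin-capping protein, was found in 77% of cells against 31.6%, at 799, 623, 653, 627 and 849 CPM against 146, 143, 172, 143 and 133 (2.15, SE 0.159, adjusted p = 1.39e-06), again with no overlap. Glrx, a glutaredoxin of the thiol redox system, rose by 1.83 (adjusted p = 0.000202) and S100a4, a calcium-binding protein of motile cells, by 1.40 (adjusted p = 0.000524).

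S100a4 leaned on few cells, since 1 cell held 30.7% of its UMIs in the Foxp3-positive cells and the 5 mice stood at 6350.1, 2019, 1971, 2161 and 998 CPM against 1286, 917, 719.7, 925 and 464. Saline mouse 1 was the highest in both classes. The genes of the list that fell were Nkg7, Cxcr6 and the integrin Itgb1. Cxcr6, the receptor for the chemokine Cxcl16, was at 113, 54.2, 107, 0 and 0 CPM against 368, 586, 212, 233 and 88.5 (log2 fold change -2.40, SE 0.413, edgeR adjusted p = 0.00245), lower in each mouse. Cxcr3, the receptor for interferon-induced chemokines, did not pass the test and was found in 44% of Foxp3-positive cells against 50.2%. Il1rl1, the interleukin 33 receptor of tissue regulatory T cells, was found in 11 of 100 cells against 3 of 623, and Ccr8 in 2 of 100 against 1 of 623.

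Suppressive mediators were mostly too sparse to test, with 4 of 16 past the filter, 2 higher and a median of 0.71. Tgfb1, which encodes transforming growth factor beta 1, was at 158, 230.4, 154, 140.5 and 324 CPM against 84.7, 98.2, 87.1, 83 and 88.5 (log2 fold change 0.99, SE 0.211, edgeR adjusted p = 0.0113), and lost its call without FMT mouse 3 and without the low-count filter. Fgl2, a fibrinogen-like protein that acts on antigen-presenting cells, was at 90.1, 163, 190.0, 195 and 275 CPM against 57.6, 70.2, 16.9, 40.8 and 0 (2.03, SE 0.441, adjusted p = 0.0120), and lost its call without FMT mouse 2. Both calls were lost with at least 2 Foxp3 UMIs required. In both genes the Foxp3-positive sums lay above all Foxp3-negative sums. The ectoenzymes that turn extracellular ATP into adenosine, from which inosine is formed, were not tested, and Entpd1 was found in 11% against 4.17% and Nt5e in 20% against 9.63%. Il10 was found in 1 of the 100 cells, Ebi3 in 6 and Areg in 4.

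Of 17 listed genes of central and naive T cells, 8 passed the filter and 7 of these fell, none rose, with a median of -1.77. Tcf7, the factor that keeps T cells naive or stem-like, was at 0, 54.2, 11.9, 75.6 and 25 CPM against 146, 149.7, 334, 308 and 457 (log2 fold change -3.01, SE 0.402, edgeR adjusted p = 0.000408). Bcl2 was at 78.8, 67.8, 35.6, 97.3 and 149.7 CPM against 351, 295, 258, 325 and 361 (-2.06, SE 0.229, adjusted p = 8.11e-05). Il7r (ENSMUSG00000003882, chromosome 15, 9505788 to 9530176, minus strand), the receptor chain for interleukin 7, was at 676, 461, 261, 292 and 249.6 CPM against 798, 624, 744, 785 and 1290.0 (-1.14, SE 0.258, adjusted p = 0.0149). Tcf7 and Bcl2 did not overlap between the classes, whereas saline mouse 1 had more Il7r in its Foxp3-positive cells than saline mouse 2 had in its Foxp3-negative cells. Lef1, a partner of Tcf7, fell by 1.59, Ccr7, the receptor that guides cells into lymph nodes, by 1.70, and Igfbp4 by 1.83 (adjusted p = 0.00482, 0.0120 and 0.00482). The calls for Ccr7 and Il7r were lost without FMT mouse 2, and that for Il7r also without FMT mouse 1 and when the comparison cells needed no Cd4 UMI. Without the mouse as a block the calls for Lef1 (edgeR adjusted p = 0.0814), Igfbp4 (0.0668) and Ccr7 were lost, and with at least 2 Foxp3 UMIs required those for Lef1 (0.0623) and Ccr7. On the overlapping list of 18 genes known to be low in regulatory T cells, 7 were tested and 6 were lower (median -1.83).

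Of 9 cytotoxic markers outside the rule 2 passed the filter, Nkg7 and Ccl5, and both were lower, as was Ly6c2, which is on no list and was named for the size of its change. Ly6c2, a surface protein of memory and effector T cells, was at 11.3, 0, 0, 10.8 and 0 CPM against 222, 260.3, 156, 265 and 177 (log2 fold change -5.36, SE 0.454, edgeR adjusted p = 4.91e-06). Nkg7, a cytotoxic granule protein, was at 113, 67.8, 95, 129.7 and 225 CPM against 871, 639, 399, 609.7 and 258 (-2.32, SE 0.284, adjusted p = 0.000202). Neither gene overlapped between the classes. Ccl5, a chemokine of effector cells, was at 293, 108, 831, 75.6 and 74.9 CPM against 2719, 1739.8, 1503, 1357 and 619 (-2.79, SE 0.378, adjusted p = 0.000443). The FMT mouse 1 level of Ccl5 lay within the range of the Foxp3-negative sums, and 1 cell held 30.7% of all Ccl5 UMIs. Of the 9 cytotoxic markers Gzmk, Prf1, Klrd1, Klrk1 and Eomes had no UMI in the 100 cells, and the summed level of the list was 227 to 938 CPM against 995 to 3888. Against a floor of 3 counts over the group, 7.91 CPM, Klrd1 was at least 8.247-fold lower and Klrk1 at least 5.61-fold lower than in the pooled Foxp3-negative cells. Prf1 and Eomes, at 1.71 and 3.76 CPM in the pooled Foxp3-negative cells, were under that floor in both classes.

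**Figure D2:**
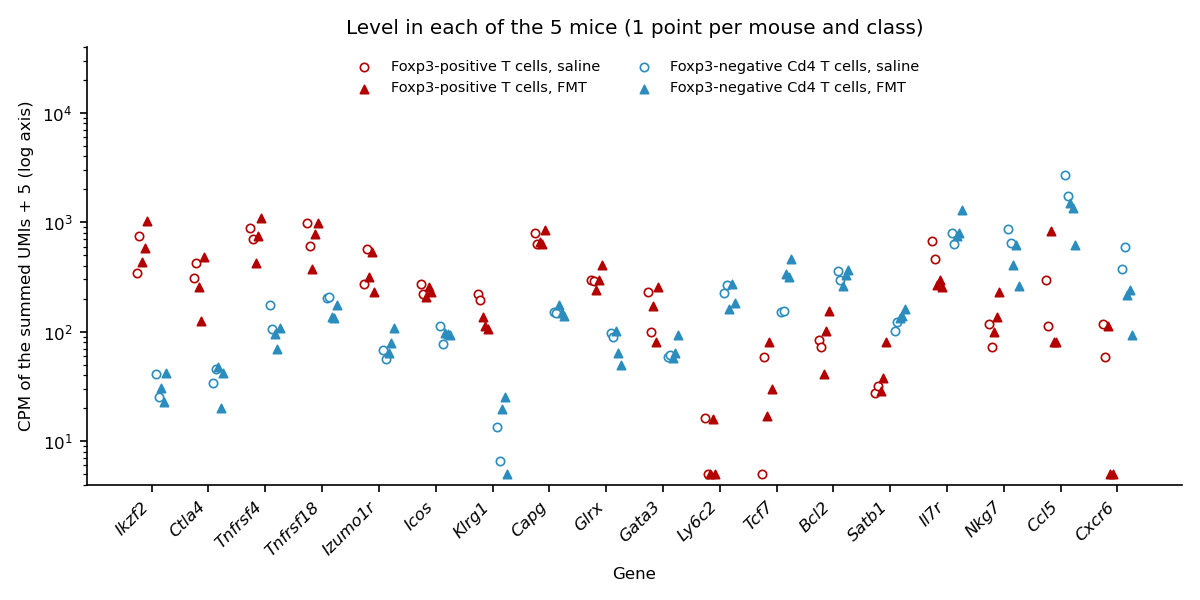
CPM of the summed UMIs plus 5 on a log axis (y) for 18 genes (x), with 1 point per mouse and class. Red marks Foxp3-positive T cells and blue Foxp3-negative Cd4 T cells, open circles the saline and triangles the FMT mice. Ikzf2 lay at 338 to 1023 CPM against 17.7 to 36.9, and Bcl2 at 35.6 to 149.7 CPM against 258 to 361, with no overlap in either gene.

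Calls in the growth and signalling lists stand beside 154 of 1511 genes (10.2%) called over all genes tested. The interleukin 2 receptor and STAT5 list had 9 of 16 genes past the filter, with Il2rb higher (log2 fold change 0.83, edgeR adjusted p = 0.0435) and Bcl2 and Il7r lower, and a median of 0.16. The call for Il2rb was lost with saline mouse 2 or any FMT mouse left out, with mixed cells removed (adjusted p = 0.0774), with DESeq2 (0.125), without the block (0.0814), without the low-count filter (0.373) and with at least 2 Foxp3 UMIs required (0.747), where its fold change was 0.41. None of 4 tested NF-kB genes passed the test (median 0.34), and of 11 T cell receptor signalling genes Cd5 rose and the phosphatase gene Ptpn22 fell (median -0.04). Of 15 interferon response genes tested Ly6e rose (median 0.04), as did Jund and Zfp36 among 13 immediate early genes (median 0.14) and the histone gene H2afz among 5 cell cycle genes (median 0.39). Of 13 genes of adenosine and inosine handling 1 passed the filter, the purine salvage gene Hprt (log2 fold change 0.32, adjusted p = 0.393). The inosine-cleaving enzyme gene Pnp was found in 27% of Foxp3-positive cells against 22.6%, and the adenosine receptor gene Adora2a in 10.0% against 12.4%. Ramp1, a subunit of the receptor for calcitonin gene-related peptide, rose by 1.81 (adjusted p = 0.00925), with 21.8 to 118 CPM in the Foxp3-negative and 75.6 to 304 CPM in the Foxp3-positive cells, and lost its call without saline mouse 1 and with at least 2 Foxp3 UMIs required.

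Single cells were mixed in state. With 5 central and 7 effector genes as the yardstick, 12 of the 100 Foxp3-positive cells carried central genes only, 49 effector genes only, 29 both and 10 neither. In the Foxp3-negative Cd4 T cells the shares were 28.7%, 23.6%, 45.7% and 1.93%. These pooled shares, at each cell's own depth, covered mice that differed. Effector genes alone were found in 45%, 47.4%, 75%, 35.7% and 46.2% of the Foxp3-positive cells of the 5 mice and in 40%, 27.9%, 21.4%, 12.2% and 5% of the Foxp3-negative ones. The gap was thus small in saline mouse 1 and wide in FMT mice 1 and 3. Ccr7 was found in 14% of Foxp3-positive cells against 32.6%. Cycling was rare: 5 cells had a Mki67 UMI, and 2 cells, both of saline mouse 1, held at least 100 UMIs of the cell cycle list. Those 2 had 16090 and 18869 UMIs and made up 39.4% of that mouse's sum. Without cells of that kind 162 genes were called in place of 154, and 140 were shared.

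Transcripts of other cell types were present in some Foxp3-positive cells. At least 20 UMIs of a foreign marker list or of haemoglobin genes were found in 10 of the 100 cells, 3, 0, 3, 2 and 2 by mouse, and in 56 of the 623 Foxp3-negative cells. Of these 10, 5 carried that many UMIs of proximal tubule genes, 2 of natural killer genes, and 1 each of monocyte, distal tubule, endothelial and haemoglobin genes, with 1 cell counted under 2 lists. The summed 14 proximal tubule markers ran from 488 to 8039 CPM in Foxp3-positive and from 582 to 6846 CPM in Foxp3-negative cells, and none was at 0. The natural killer list ran from 0 to 938 against 14.7 to 469 CPM, with the defining genes Ncr1, Klrb1c, Klra8, Klre1 and Klrb1f at 0 in the Foxp3-positive cells. All of these but Klrb1c were also under the floor of 3 counts, 7.91 CPM, in the pooled Foxp3-negative cells. Their zeros thus do not set the classes apart. The endothelial list reached 1972 CPM in FMT mouse 3 and at most 32.4 CPM in the other Foxp3-positive sums, against 43.5 to 192 CPM in the Foxp3-negative ones. The monocyte list ran from 25.0 to 411 against 29.5 to 310.3 CPM, and the neutrophil list from 35.6 to 199.7 against 8.47 to 175 CPM. B cell markers outside the rule were at 33.8, 27.1, 35.6, 75.6 and 0 CPM against 13.6, 12.5, 9.68, 10.9 and 7.37, higher in the Foxp3-positive cells of 4 of the 5 mice, with Ms4a1, Cd22, Fcer2a, Ebf1 and Pax5 among the 6 of 9 at 0. Those 6 were under the same floor in the pooled Foxp3-negative cells too. The part of these transcripts in the results was not tested beyond the removal of mixed cells. With such mixed cells removed from both classes 212 genes were called, 92 higher and 120 lower, and 135 were shared with the 154.

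The Foxp3-negative class also held cells with naive genes, Tcf7 in 54.9% of them, so the second comparison set the Foxp3-positive cells against the 254 Foxp3-negative Cd4 T cells with at least 1 UMI of Cxcr6, a receptor of activated tissue T cells. It shares the Foxp3-positive sums with the first. FMT mouse 3 had 4 such cells and stayed out, leaving 4 mice. Ikzf2 and 7 of the 9 tested surface receptors were higher, Nkg7, Ccl5 and Ly6c2 were lower, and Il7r did not pass the test. edgeR's quasi-likelihood test called 120 of 2420 genes (4.96%), 71 higher (2.93%) and 49 lower (2.02%), with a median over all genes of -0.01. The number was 66 without the mouse as a block and 51 with DESeq2, and leaving out saline mouse 1 gave 70, saline mouse 2 gave 52, FMT mouse 1 gave 109 and FMT mouse 2 gave 45.

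Ikzf2 stood at 338, 745, 427 and 573 CPM against 11.9, 14.2, 14.1 and 4.02 in the Cxcr6-positive cells of the same 4 mice (log2 fold change 5.44, SE 0.296, edgeR adjusted p = 4.54e-07). The 9 surface receptors tested had a median of 1.85, with 8 positive and none called lower. Izumo1r was at 16.1 to 47.5 CPM in the Cxcr6-positive cells and rose by 3.92 (adjusted p = 2.24e-05). Tnfrsf4 was at 72.3 to 92.1 CPM there and rose by 3.00 (adjusted p = 8.39e-06). Cd27, at 20.8 to 104 CPM, rose by 2.13 (adjusted p = 0.00173), and Nrp1, at 28.3 to 47.5 CPM against 90.1 to 205, by 1.86 (adjusted p = 0.00686). For all of these the classes did not overlap, and the call for Nrp1 was lost without saline mouse 2 or FMT mouse 2. Ikzf2, Izumo1r and Nrp1 passed the filter only through the Foxp3-positive cells and could only come out higher.

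Of the tissue and effector list 17 of 25 genes were tested, 5 higher and 2 lower, with a median of 0.19. Itgae, the integrin chain that binds E-cadherin on epithelium, was at 135, 122, 59.4 and 64.8 CPM against 0, 0, 0 and 24.1. Itgae passed the filter only through the Foxp3-positive cells and could only come out higher. It rose by 4.17 (SE 0.881, edgeR adjusted p = 0.0181), and the call was lost without either saline mouse and with DESeq2. It was found in 17% of Foxp3-positive cells against 0.963% of Foxp3-negative Cd4 T cells and 8.42% of CD8 T cells, and in none of the 13 cells of FMT mouse 3. Klrg1, which likewise passed only through the Foxp3-positive cells, rose by 3.83 (adjusted p = 0.00860). It lost its call without saline mouse 2 or FMT mouse 2. Pim1, a kinase gene induced by interleukin 2 signals, was at 315, 542, 451 and 648 CPM against 151, 144, 212 and 269 and rose by 1.33 (adjusted p = 0.00173) with no overlap. Against all Foxp3-negative cells its log2 fold change was 0.70 (adjusted p = 0.0608).

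Of the 9 cytotoxic markers 4 passed the filter, but Klrd1 and Klrk1 passed it only through the Cxcr6-positive cells and could only come out lower. These receptor chains of natural killer cells and effector T cells were at 0 in all Foxp3-positive sums against 65.3 to 148 and 68.2 to 100.4 CPM. Against a floor of 3 counts over these 4 mice, 8.84 CPM, they were at least 10.67-fold and at least 9.537-fold lower, and DESeq2 called neither. The other 2 were Nkg7 and Ccl5. Nkg7 was at 848 to 1197 CPM in the Cxcr6-positive cells and fell by 3.32 (edgeR adjusted p = 4.54e-07). Ccl5, at 2092 to 2946 CPM there, fell by 3.12 (adjusted p = 0.000175), and Id2, at 727 to 1083 CPM, fell by 1.91 (adjusted p = 0.000330). Ly6c2, at 294 to 647 CPM, fell by 6.00 (adjusted p = 5.24e-06), and it too passed the filter only through the Cxcr6-positive cells. Of the central and naive list 2 of 5 tested genes were lower (median -0.93), Bcl2 by 2.05 from 249 to 369 CPM (adjusted p = 0.000645) and Tcf7 by 1.92 (adjusted p = 0.0351, lost with FMT mouse 1, FMT mouse 2 or saline mouse 1 left out, with DESeq2 and without the block). Il7r had a log2 fold change of -0.74 (adjusted p = 0.119).

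**Figure D3:**
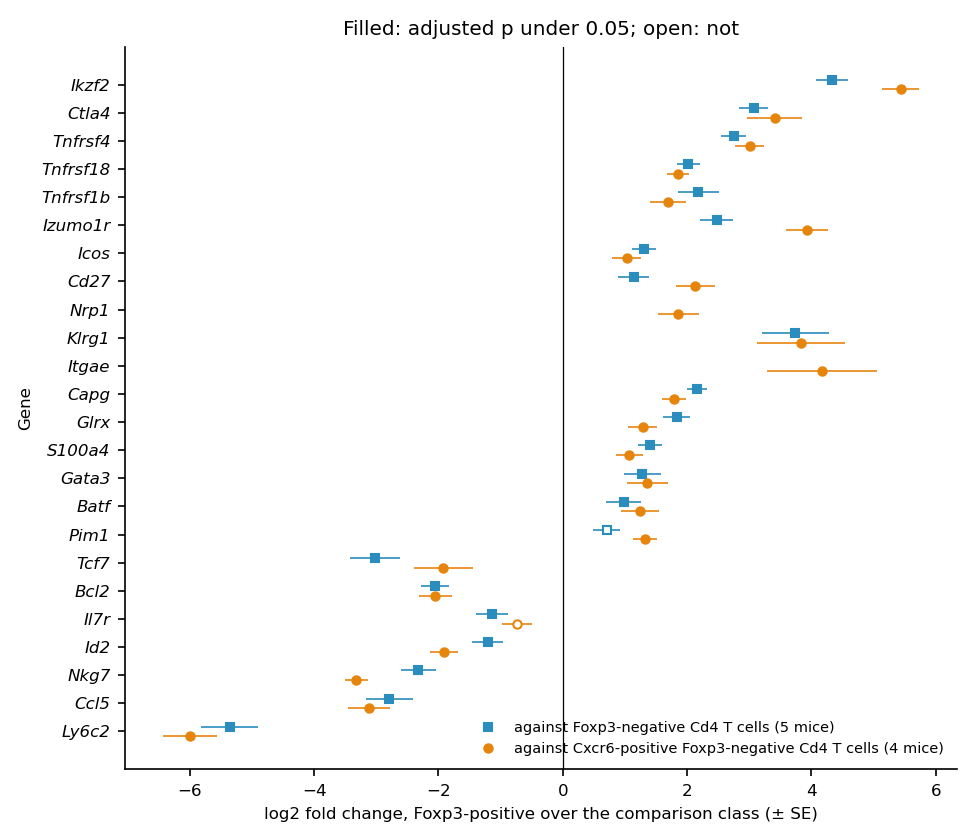
log2 fold change of the Foxp3-positive cells (x axis, bars are 1 SE) for 24 genes (y axis), against all Foxp3-negative Cd4 T cells in 5 mice and against the Cxcr6-positive ones in 4 mice. Blue squares mark the first comparison, orange circles the second, and filled symbols an edgeR adjusted p under 0.05. Ikzf2 stood at 4.34 and 5.44 and Ly6c2 at -5.36 and -6.00. The comparisons share the Foxp3-positive sums.

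Treatment was compared next, first in how many of the cells there were. The sample titles carry different letter codes in the saline and the FMT group, with no meaning given, and whatever they mark cannot be told apart from treatment. Foxp3-positive cells made up 12.5% (20 of 160 cells, 95% exact interval 7.81 to 18.6) and 13.5% (19 of 141, 8.31 to 20.2) of Cd4 T cells after saline. Shares after FMT were 10.4% (20 of 193, 6.45 to 15.6), 15.9% (28 of 176, 10.8 to 22.2) and 24.5% (13 of 53, 13.8 to 38.3). The lowest and the highest share both belonged to FMT mice, so the groups overlapped. The means were 13.0% ± 0.690 (SD, n = 2) and 16.9% ± 7.14 (SD, n = 3), and their difference, 3.95 points, did not exceed the scatter among mice (2-sided exact permutation p = 0.6, where 0.1 is the smallest that 2 against 3 mice allow). After each cell was thinned to 1000 UMIs, which left out no Foxp3-positive cell and 1 Foxp3-negative Cd4 T cell of saline mouse 2 and 2 of FMT mouse 2, 47 cells still held a Foxp3 UMI beside the markers of the rule, of 256 Cd4 T cells in place of 723. The shares were then 18.3% (11 of 60) and 26.7% (12 of 45) against 8.57% (6 of 70), 23.2% (13 of 56) and 20% (5 of 25), and the difference turned to -5.24 points (exact p = 0.6). The level also rests on the Cd4 requirement, which holds for the Foxp3-negative cells alone. Required of both, it gave 5.41% and 8.27% against 3.35%, 3.90% and 9.09%, and required of neither 4.18% and 5.16% against 3.396%, 6.28% and 8.84%. Of all T cells they made up 2.82% and 3.51% against 1.77%, 3.95% and 5.10% (difference 0.443 points, exact p = 0.8), and of kept barcodes 0.382% and 0.581% against 0.317%, 0.571% and 0.455% (difference -0.0335 points, exact p = 0.7). With a Cd4 UMI required of the Foxp3-positive cells, which left 35, the shares of kept barcodes were 0.153% and 0.336% against 0.0951%, 0.122% and 0.140% and did not overlap (difference -0.125 points, exact p = 0.1, the smallest possible).

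No gene passed the test between FMT and saline within the Foxp3-positive cells. edgeR's quasi-likelihood test called 0 of 1475 genes (0%), with 60 at an unadjusted p under 0.05, and DESeq2 called 1, Gpx3. In simulated data the edgeR test recovered 18 of 170 tested changes of 2-fold and 149 of 171 of 4-fold. Most differences of 2-fold would thus be missed here. Without saline mouse 2 edgeR called 20 genes, 17 of them lower, and without saline mouse 1 it called 4. Ikzf2 stood at 338 and 745 CPM after saline and 427, 573 and 1023 after FMT (log2 fold change 0.20, SE 0.431, edgeR adjusted p = 0.999), and Ctla4 at 304 and 420.1 against 249, 119 and 474 (-0.55, SE 0.480, adjusted p = 0.999). Both overlapped between the groups. Of the 9 tested surface receptors 4 were positive (median -0.18), and of the 16 tissue and effector genes 5 were positive (median -0.15), beside a median of -0.00097 over all genes tested.

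Il7r was among the 5 genes with the smallest p on the negative side. It stood at 676 and 461 CPM in the saline mice and at 261, 292 and 249.6 CPM in the FMT mice, a log2 fold change of -1.14 (SE 0.310, edgeR adjusted p = 0.663). The groups did not overlap, 60 of the 100 cells contributed, and no cell held more than 8.50% of the UMIs. A lack of overlap between 2 and 3 mice is not a test. It was also seen for Itgb7 and Cd247, with an edgeR unadjusted p of 0.361 and 0.377. In the Foxp3-negative cells Il7r was at 798 and 624 CPM after saline and 744, 785 and 1290.0 CPM after FMT. The difference between the classes in the FMT effect was -1.53 (SE 0.352, edgeR adjusted p = 0.0973), which did not pass the test, and it was -1.35 (adjusted p = 0.0231) with mixed cells removed.

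The other genes with the smallest p were Ifitm3, Gpx3, Cebpb, Tyrobp and Imp3 on the positive side and Hbb-bs, Mt1, Tuba1b and S100a4 on the negative side. Cebpb, a factor of myeloid and stress responses, was at 135 and 136 CPM against 416, 324 and 374 (log2 fold change 1.38, edgeR adjusted p = 0.663). Imp3, a subunit of the small nucleolar ribonucleoprotein of ribosome assembly, was at 33.8 and 54.2 CPM against 154, 195 and 175 (1.92, adjusted p = 0.663). Neither overlapped between the groups, and neither passed the edgeR test. Gpx3, a peroxidase made by the proximal tubule, was at 360.3 and 230.4 CPM against 4655, 1156 and 1298 (2.95, adjusted p = 0.354), and its fold change was -0.0214 with mixed cells removed. S100a4 was at 6350.1 and 2019 CPM against 1971, 2161 and 998 (-1.33, adjusted p = 0.999). The cell cycle list had a median of -1.31 over 5 tested genes, and both cycling cells were in saline mouse 1. The immediate early list had a median of 0.47 with 12 of 13 tested genes positive and none called, beside 737 of 1475 positive over all genes. FMT mouse 3 had the highest level of Fos, Jun, Junb and Jund.

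A last test asked whether the FMT effect differed between the Foxp3-positive and the Foxp3-negative cells of the same mice. edgeR's quasi-likelihood test of the interaction called 8 of 2196 genes (0.364%), 5 more positive in the Foxp3-positive cells and 3 more negative. Leaving out saline mouse 1 gave 4 calls, FMT mouse 2 gave 14 and FMT mouse 3 gave 20. Of the 8, Tyrobp, Ifitm3, Fcer1g, Gpx3, Hbb-bs, Hba-a1 and Hba-a2 had a large part of their UMIs in a single cell. In the Foxp3-positive cells 1 cell held 58.6% of the Tyrobp UMIs, 69.9% of the Ifitm3, 65.2% of the Fcer1g, 35.7% of the Gpx3, 81.0% of the Hbb-bs, 94.95% of the Hba-a1 and 91.9% of the Hba-a2 UMIs. With mixed cells removed Dusp2 was the 1 of the 8 still called. Ifitm3, Gpx3 and Hbb-bs then lost their calls, and Tyrobp, Fcer1g, Hba-a1 and Hba-a2 were no longer tested. Calls were lost with doublets removed for Gpx3 and the 3 haemoglobin genes, without saline mouse 1 for these 4 and Fcer1g, without saline mouse 2 for Gpx3 and Dusp2, without FMT mouse 3 for Hba-a1 and Hba-a2, and with cycling cells removed for Fcer1g and Gpx3.

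Dusp2 was spread over more cells. It encodes a nuclear phosphatase that switches off mitogen-activated protein kinases and is induced by T cell receptor signals. Dusp2 (ENSMUSG00000027368, chromosome 2, 127336159 to 127338376, plus strand) stood at 56.3 and 94.9 CPM in the Foxp3-positive cells of the saline mice and at 273, 195 and 524 CPM in those of the FMT mice. In the Foxp3-negative cells it ran the other way, with 327 and 561 CPM in the saline mice against 209, 103 and 155 CPM in the FMT mice. Neither class overlapped between the groups, which between 2 and 3 mice is not a test. The difference between the 2 effects was 3.30 on the log2 scale (SE 0.476, edgeR adjusted p = 0.00118), 34 of the 100 cells carried the gene, and the highest of them held 13.5% of its UMIs. It was 3.47 (adjusted p = 1.50e-06) with mixed cells removed, and 3.25 (adjusted p = 0.0511) without saline mouse 2, which ended the call. Within the Foxp3-positive cells alone, FMT over saline was 1.97 (SE 0.525, adjusted p = 0.663).

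**Figure D4:**
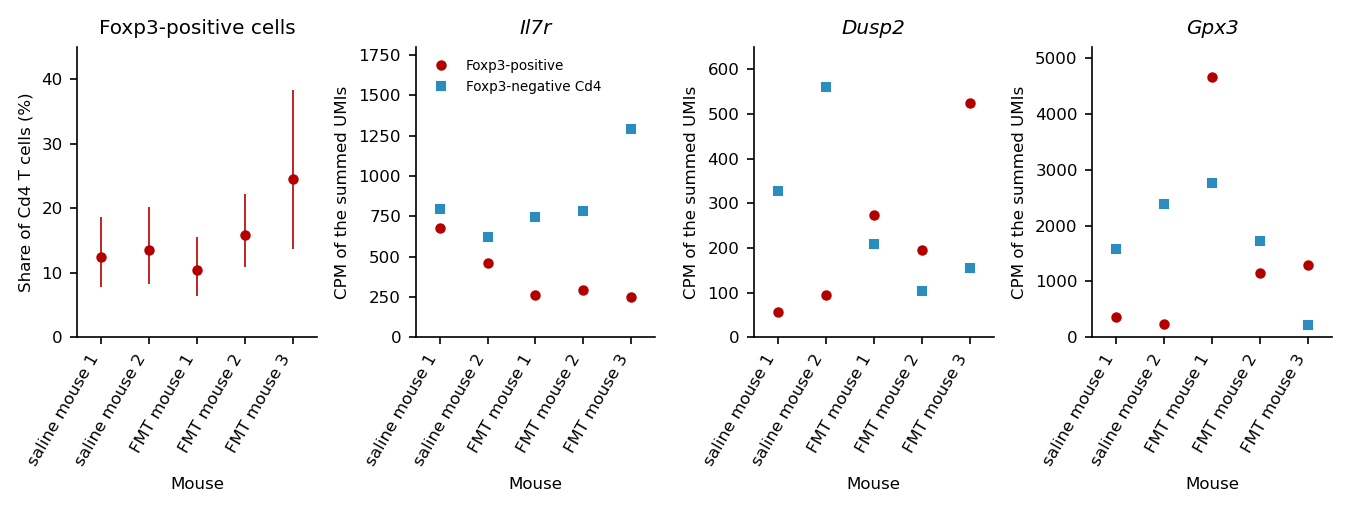
Values in each mouse (x axis). The first panel gives the Foxp3-positive share of Cd4 T cells in percent with its exact 95% interval for counting error, and the others the CPM of Il7r, Dusp2 and Gpx3 in the summed Foxp3-positive (red circles) and Foxp3-negative Cd4 T cells (blue squares). Dusp2 was at 56.3 and 94.9 CPM in the saline and 273, 195 and 524 CPM in the FMT mice in the Foxp3-positive cells, and ran the other way in the Foxp3-negative ones, while the shares of 12.5% and 13.5% lay between the FMT values of 10.4% and 24.5%.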

How the data were processed

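Raw UMI counts per gene and barcode were deposited by the authors for 5 libraries, 1 per mouse (saline n = 2, FMT n = 3), and used as deposited. Per the submitters' processing notes they come from Cell Ranger 2.1.1 with the mm10 build, whereas the file headers name Cell Ranger 4.0.0. Libraries held 15333445 to 45309178 UMIs. Gene coordinates are those of GENCODE M21 (GRCm38), in which 27645 of 27998 identifiers were found. Every pair of libraries differed by more than sampling noise. Pairs of libraries shared 2 to 8 kept barcodes, none of them Foxp3-positive in both.

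UMIs were summed per mouse and class (at least 10 cells each) and tested with edgeR 4.0.16 in R 4.3.3, with TMM scaling, its own filter on low counts, the quasi-likelihood F test and Benjamini-Hochberg adjustment over all genes tested. CPM values use the class's summed UMIs. Both classes come from the same mouse, so the mouse was a block there. Between treatments the replicate numbers were not taken to pair mice. Shares were tested with 2-sided exact permutation tests, and intervals are exact Clopper-Pearson intervals. Doublets, scored with Scrublet in scanpy 1.11.5, stayed in. The tests were checked on simulated data with known changes. Between the classes 158 of 176 tested 2-fold changes were recovered, and 172 of 172 4-fold ones. Between FMT and saline 18 of 170 tested 2-fold changes were recovered, and 149 of 171 4-fold ones.

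Alternatives were RLE scaling, no low-count filter, doublets removed, mitochondrial UMIs under 20%, each mouse left out, DESeq2 1.42.0, the replicate block added or dropped, cells thinned to 1000 UMIs, Foxp3 at 2 or more UMIs, and Cd4 required. Chosen after seeing the data were comparison cells without a Cd4 requirement, mixed cells removed (at least 20 foreign UMIs) and cycling cells removed (at least 100 cell cycle UMIs).

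The cells, gene lists and tests were chosen with earlier results of these data known. Named genes were called genes of large fold change (at least 50 CPM in 1 class, 1 direction in every mouse), called members of the lists and the 4 markers, or, with fewer than 5 calls, the 5 smallest p per direction. List members given as detection rates or without a call, and the genes Ikzf2, Ctla4, Dusp2 and Il7r between treatments, were chosen after their values were seen.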

Additional observations from a re-analysis of the deposited data

Results flagged for a closer look

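For 8 genes the FMT effect differed between Foxp3-positive and Foxp3-negative Cd4 T cells by edgeR's interaction test. The difference was 3.30 on the log2 scale for Dusp2, which 34 of the 100 cells carried. It was 6.23 for Tyrobp, an adaptor of activating receptors, found in 5 cells, and 5.38 for Fcer1g, the Fc receptor gamma chain, found in 7. For Ifitm3, an interferon-induced membrane protein found in 6 cells, it was 6.15, and 1.52 with mixed cells removed (edgeR adjusted p = 0.951). For Gpx3 it was 3.20, and 0.11 with mixed cells removed (adjusted p = 0.994). The haemoglobin genes Hba-a2, Hbb-bs and Hba-a1 had differences of -6.51, -5.41 and -6.25, and 1 cell of saline mouse 1 held 534 haemoglobin UMIs.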

How the results depend on the processing

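The difference in share of Cd4 T cells between FMT and saline mice was -1.39 points with Cd4 required of the Foxp3-positive cells, -5.24 after thinning, and 0.148 to 7.23 with 1 mouse left out. In the share of T cells it was -0.597, -0.616 and -0.303 to 1.36 under the same 3 settings, negative without FMT mouse 3. In the share of kept barcodes it was -0.125, -0.116 and 0.0138 with Cd4 required, after thinning and with mixed cells removed, as tubule cells then leave the denominator, and -0.133 to 0.0659 with 1 mouse left out, positive without saline mouse 2 or FMT mouse 1. Against Foxp3-negative Cd4 T cells the number of genes called was 331 without a low-count filter, 87 after thinning (423 genes tested), 63 with Foxp3 at 2 or more UMIs (4 mice), 706 without the Cd4 requirement, 105 without the replicate block and 59 to 148 with 1 mouse left out, the lowest without FMT mouse 2. Against Cxcr6-positive cells it was 306 without a filter, 51 with DESeq2, 66 without the replicate block, 46 after thinning and 45 to 109 with 1 of its 4 mice left out (FMT mouse 3 was never in it). Between FMT and saline it was 35 without a filter, 1 with DESeq2, 0 with the replicate block (52 at an unadjusted p under 0.05) and 0 to 20 with 1 mouse left out. The deviations of same-numbered mice correlated by 0.110 and 0.0653, from 2 pairs. The interaction gave 32 calls without a filter, 5 with doublets removed, 23 with mixed cells removed and 4 to 20 with 1 mouse left out. Among 70 named gene results, 937 values under alternatives in which the gene was tested were compared, and 831 kept their direction and side of the threshold, 87 lost a call, 14 gained one and 5 turned direction. These were Gpx3 between treatments (-0.0214 with mixed cells removed), Ikzf2 between treatments (-0.313 without saline mouse 1, -0.158 without FMT mouse 3 and -0.105 with the replicate block, within -0.313 to 0.827 with 1 mouse left out) and Hba-a1 in the interaction (-7.25 to 2.76 with 1 mouse left out, the positive value without saline mouse 1). The cause of these changes was not tested, apart from fewer genes or mice where given. Cd4-positive Foxp3-positive cells were under 10 in most mice, so that setting could not be fitted for genes. With 13 to 28 cells per mouse, sparse genes such as Il2ra and Il10 were below what could be tested between the classes.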

Other observations

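Cytosolic ribosomal protein genes, looked at after the calls were seen, were lower in the Foxp3-positive cells than in the Foxp3-negative Cd4 T cells. All 81 tested had a negative log2 fold change, 24 of them called by edgeR, with a median of -0.43. Over all genes tested in that comparison 787 of 1511 were positive, and 69 (4.57%) were called lower. Against the Cxcr6-positive Foxp3-negative cells 68 of 81 were negative and 2 called, with a median of -0.10. Over all genes tested there 1173 of 2420 were positive and 49 (2.02%) were called lower, so the 2 calls were near the share over all genes. Between FMT and saline in the Foxp3-positive cells 74 were negative (median -0.18), and in the interaction 78 (median -0.41), none of them called. Over all genes tested 737 of 1475 were positive between FMT and saline and 1045 of 2196 in the interaction. Median depth was 2999 UMIs in the Foxp3-positive, 3899 in the Foxp3-negative and 4421 in the Cxcr6-positive cells, and its part in these values was not tested.

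With mixed cells removed the interaction test called 23 genes, of which 1, Dusp2, was among the 8 called with all cells. Tyrobp, Fcer1g, Hba-a1 and Hba-a2 were not tested there. Of the 23, 21 were more negative in the Foxp3-positive cells. With all cells, the 12 tested genes of the mitochondrial genome each had a negative difference, with a median of -0.59 and none called by edgeR. Between FMT and saline in the Foxp3-positive cells 11 were tested, all negative and none called (median -0.90). Against the Foxp3-negative cells 9 of 12 were positive and none called (median 0.08), and against the Cxcr6-positive ones 12 of 12 were positive and 4 called (median 0.46). Over all genes tested against the Cxcr6-positive cells 1173 of 2420 were positive, and 71 (2.93%) were called higher. The median mitochondrial share per cell was 0.816% and 1.32% in the Foxp3-positive cells of the saline mice and 1.08%, 0.881% and 1.05% in those of the FMT mice. A median does not show single cells. With mitochondrial UMIs under 20% saline mouse 2 kept 18 of its 19 Foxp3-positive cells, and the other mice kept all of theirs. The part of the cell above that limit in these mitochondrial values was not tested.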
